A study of Mus musculus with 24 samples.

Results

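The genes described here are 43 mouse genes of the extracellular matrix and of contractile cells. They comprise 6 fibrillar collagens, 4 other collagens, 7 basement membrane genes, 8 genes of fibronectin, proteoglycans and matricellular proteins, 7 genes of elastic fibres and cross-linking, 5 matrix proteases and inhibitors, 3 contractile genes and 3 genes of collagen folding in the endoplasmic reticulum (ER). They were taken by symbol from deposited tables of read counts that list 32728 genes, and all 43 were found. Expression was measured by RNA sequencing in cultured neurons and astrocytes of mice whose Perk alleles are floxed (PerkloxP/loxP). Perk is Eif2ak3, a kinase of the ER membrane that slows translation when unfolded proteins accumulate. Every culture, controls included, carried the floxed alleles and received a lentivirus: active Cre recombinase made Perk KO cells and inactive ΔCre made WT cells. The treatment was tunicamycin (TM), which blocks N-linked glycosylation and so loads the ER with unfolded proteins, with DMSO in controls. The dose was 5 µg/mL, the exposure 24 hours and the age of the cultures 14 days in vitro. The 24 libraries make up 8 groups of 3, set by cell type, genotype and treatment. The labels name the 3 libraries of a group biological replicates but do not tell whether each is a culture or an animal of its own, so a p-value here covers the spread among these libraries, which may be technical.

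Collagen chains are made in the ER, where their prolines and lysines are hydroxylated and where the chaperone Serpinh1 holds the folded helix until export. Outside the cell the helices are trimmed and then cross-linked by lysyl oxidases, whereas basement membranes are thin sheets of type IV collagen, laminins and nidogen. In brain tissue, fibroblasts of the meninges and vessels are known as the main source of interstitial collagens and small proteoglycans, mural cells as the main source of smooth muscle actin and its partners, and astrocytes as a source of thrombospondins.

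The promoters of 3 members are printed because the results below turn on these genes. Mmp3 had the largest TM rise of a member in Perk KO cells, Serpinh1 the largest rise in WT cells and Myl9 the largest fall in WT neurons. Each sequence is the 180 bases before the first annotated start, 5′ to 3′ on the gene's strand, from RefSeq (GRCm38.p6): chr9:7445642-7445821 on the plus strand, chr7:99353240-99353419 on the minus strand and chr2:156775240-156775419 on the plus strand. Capitals mark an AP-1 site in Mmp3, the hypoxia response core, read on the opposite strand, in Serpinh1 and a CArG box, the sequence bound by serum response factor, in Myl9.
Mmp3: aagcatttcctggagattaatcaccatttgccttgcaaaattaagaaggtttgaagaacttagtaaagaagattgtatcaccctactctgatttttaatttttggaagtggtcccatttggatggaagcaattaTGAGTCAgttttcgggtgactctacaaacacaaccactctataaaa
Serpinh1: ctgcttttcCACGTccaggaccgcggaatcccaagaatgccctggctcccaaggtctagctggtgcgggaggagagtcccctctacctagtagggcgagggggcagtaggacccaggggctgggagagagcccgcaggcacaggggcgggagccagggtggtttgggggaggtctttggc
Myl9: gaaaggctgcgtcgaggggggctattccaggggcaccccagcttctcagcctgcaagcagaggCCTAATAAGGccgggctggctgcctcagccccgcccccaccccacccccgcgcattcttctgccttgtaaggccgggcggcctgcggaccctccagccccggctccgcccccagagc
By symbol, 27 of the 43 members matched an entry of the RefSeq promoter table, with 30 windows of 300 bases (250 before and 50 after a start). On both strands 8 motifs were searched. They were the CArG box, the ER stress element (CCAAT, 9 bases of any kind, then CCACG), the unfolded protein response element core TGACGTGG, the hypoxia response core ACGTG, which lies within the preceding one, the SMAD box GTCTAGAC, the TEAD element GGAATG, the AP-1 site TGANTCA and the heat shock element GAANNTTC. Mmp3 was the one matched member with an AP-1 site, 46 bases before the start in the table, while 7.81% of all 32851 windows hold one. A CArG box was in the windows of Myl9, 161 bases before the start in the table, and Lama2, against 1.63% of all windows. The ACGTG core was in the windows of 6 genes (Col1a2, Col5a1, Fbln1, Mmp14, P4ha1 and Serpinh1), against 19.6% of all windows. GGAATG was in those of 4 (Acta2, Col3a1, Col6a2 and Nid1), against 14.7%, and the heat shock element in that of Lama2, against 7.86%. The ER stress element, TGACGTGG and the SMAD box (0.119%, 0.676% and 0.213% of all windows) were in 0 windows of members. A match describes letters in the window and shows no binding.

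Library totals ranged from 16030022 to 25934747 counts. Eif2ak3, the targeted gene, was lower in Perk KO than in WT libraries in all 4 comparisons, with log2 fold changes of -2.73 in control and -3.44 in TM-treated neurons and -1.94 in control and -2.66 in TM-treated astrocytes, and its groups did not overlap. Levels are in CPM, read counts scaled to a common library size within each cell type, and are given in the order of replicates 1, 2 and 3. Changes are log2 fold changes ± standard error from edgeR's quasi-likelihood test over every gene that averaged 10 counts or more per library, and a gene is called where its Benjamini-Hochberg adjusted p is under 0.05. Replicate 1 libraries stood apart for many of these genes. In all 4 neuron groups replicate 1 was lowest for 18 members, among them Col1a1, Col1a2, Col4a1, Fn1, Lox and Mmp2, and in all 4 astrocyte groups for 9, among them Col3a1, Dcn and Acta2. Replicate 2 was lowest in all 4 groups for 0 members in either cell type, and replicate 3 for 1 in neurons (Tagln) and 0 in astrocytes. The same count was not made over all genes, so whether this order is particular to the members is not known. The number of called members without all replicate 1 libraries is given beside a result where it differs by more than 1.5 times.

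In unstressed WT cultures the most abundant members per kilobase were genes of contraction, protease inhibition and collagen folding rather than collagens. In astrocytes the thrombospondin Thbs1 was among them as well. Per kilobase of transcript, the highest mean levels in control WT neurons were those of Acta2 (179 CPM per kb), Timp2 (172), Serpinh1 (93.2), Myl9 (51.6) and P4ha1 (28.6). In control WT astrocytes they were those of Acta2 (558 CPM per kb), Serpinh1 (434), Timp2 (264), Thbs1 (245) and Myl9 (229.7). Col1a1, a chain of type I collagen, was at 4.49 and 5.17 CPM per kb in these 2 groups, and Col6a3 was the lowest member in neurons at 0.2.

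The 43 genes together took 0.249% to 0.286% of all counts in control WT neurons and 0.951% to 1.04% in control WT astrocytes. With TM the share was 0.708% to 0.765% in WT astrocytes, below every control library, and 0.293% to 0.371% in WT neurons, above every control library. Within it, collagen folding genes took 0.0364% to 0.0393% in control WT neurons and 0.136% to 0.149% in TM-treated ones. Contractile genes took 0.0358% to 0.0397% and 0.00657% to 0.00961% there, so both roles separated control from TM libraries in opposite directions.

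**Figure D1:**
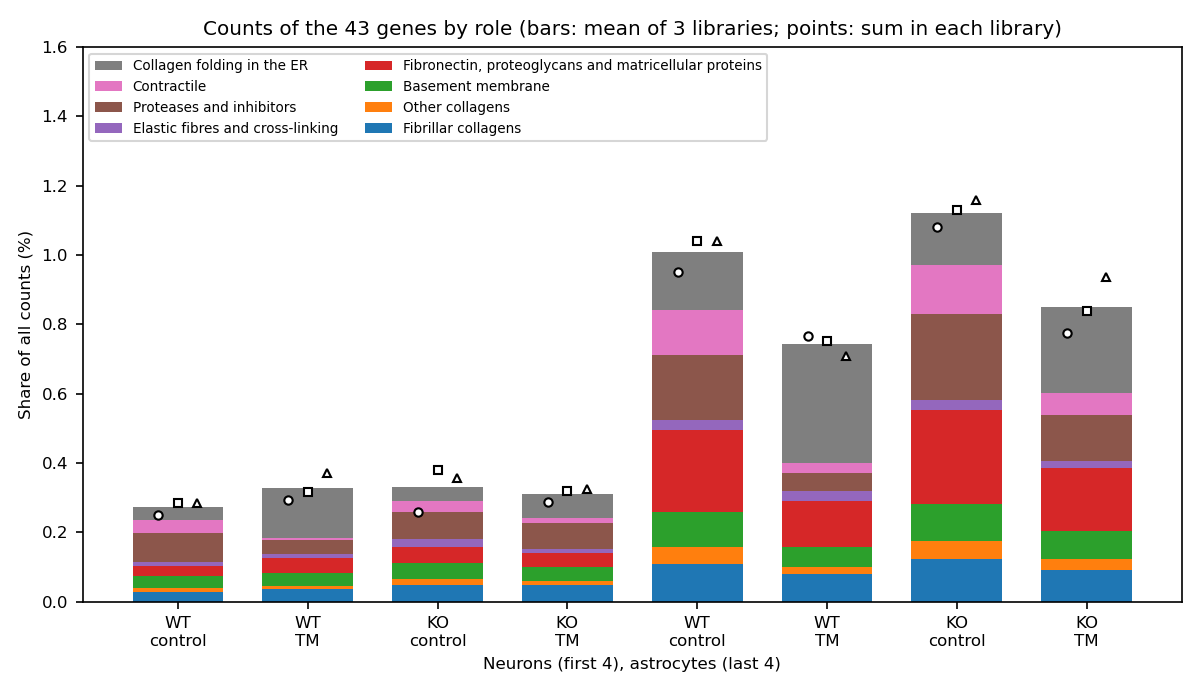
Share of all counts (in percent, from 0) taken by the 43 genes in each of the 8 groups, with bars stacked by role (mean of 3 libraries) and 1 point per library for the sum. All astrocyte libraries lie above all neuron libraries, and in WT neurons the segment of collagen folding genes widens with TM while that of contractile genes narrows.

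Between the control WT cultures, 33 of the 43 members were called, 28 lower and 5 higher in neurons, where 71.1% of all genes tested were called (35.2% lower and 35.8% higher). The members' median log2 difference (neurons minus astrocytes) was -1.37, against -0.03 over all genes. The largest deficits in neurons were those of Thbs1 (-3.15 ± 0.14), a thrombospondin that promotes synapse formation, Fn1 (-2.46 ± 0.30), Col5a2 (-2.39 ± 0.17) and Timp3 (-2.37 ± 0.17). The 5 members higher in neurons were Lum (3.41 ± 0.53), Lamb1 (1.69 ± 0.27), Col6a3 (1.67 ± 0.52), Eln (1.19 ± 0.23) and Col6a2 (1.08 ± 0.30). Lum had 0.14, 0.22 and 0.32 CPM in control WT astrocytes, a few counts per library. It passed the filter on low counts through the neuron libraries, so the size of its difference is uncertain. Col1a1 (-0.05 ± 0.53), Col1a2 (-0.21 ± 0.26), Col3a1 (-0.69 ± 0.42) and Dcn (0.50 ± 0.52) were not called. In bulk RNA, fewer cells of a type and less RNA per cell cannot be told apart.

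Markers of other cell types were measured in both cultures. The 12 neuronal markers summed to 6280 to 7020 CPM in control WT neurons and 286 to 331 in control WT astrocytes. In neuron cultures they were at 3340 to 3650 CPM in TM-treated WT, 5640 to 6110 in control Perk KO and 3420 to 4050 in TM-treated Perk KO libraries. The 10 markers of the oligodendrocyte lineage summed to 466 to 523 CPM in control WT, 122 to 168 in TM-treated WT, 367 to 429 in control Perk KO and 293 to 356 in TM-treated Perk KO neurons. In astrocyte cultures their sums were 390 to 416, 94.6 to 100, 463 to 540 and 467 to 540 CPM in the same order. The 12 astrocyte markers summed to 3430 to 3620 CPM in control WT neurons, 1130 to 1210 in TM-treated WT neurons, 4560 to 4810 in control Perk KO neurons and 3860 to 4770 in TM-treated Perk KO neurons. In the astrocyte cultures, in the same order of groups, the sums were 2760 to 4010, 711 to 800, 3740 to 4900 and 2300 to 2940 CPM, with Gjb6 at no more than 0.0565 CPM in any library. The 20 fibroblast and mural cell markers hold none of the 43 genes. They summed to 85.5 to 99.4 CPM in control WT, 38.7 to 42.9 in TM-treated WT, 96 to 112 in control Perk KO and 95.3 to 117 in TM-treated Perk KO neurons. In astrocyte cultures the sums were 566 to 603 CPM in control WT, 173 to 227 in TM-treated WT, 594 to 687 in control Perk KO and 455 to 559 in TM-treated Perk KO libraries. Single genes did not all move with the sum. With TM in WT neurons 5 of 12 tested fell and 2 rose, where 24.8% and 27% of all genes did. With TM in WT astrocytes 4 of 11 fell and 0 rose, where 27.7% and 25% of all genes did. Of these markers, the fibroblast gene Slc47a1 reached at most 0.168 CPM in a library, and the pericyte genes Kcnj8 and Higd1b at most 0.437 and 0.251 CPM. The 9 endothelial markers used summed to 10.8 to 31.6 CPM over all libraries, with Tie1 at most at 0.122 and Emcn at most at 0.447 CPM in a library. Microglial markers reached 157 CPM in control WT astrocyte replicate 1, against 28 and 46.3 in replicates 2 and 3. The part of these other cells in the results below was not tested.

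TM changed many of these genes in WT cultures, and mostly downward. In WT neurons 27 of 43 members were called, 7 higher and 20 lower, where 51.8% of all genes tested were called (24.8% lower), and the members' median log2 fold change was -0.52 against 0.04 over all genes. In WT astrocytes 26 of the 42 members tested were called, 1 higher (Serpinh1) and 25 lower, against 52.7% of all genes (27.7% lower), with a median of -1.09 against -0.01. In Perk KO neurons 15 of 43 were called, 6 higher and 9 lower, against 23.8% of all genes, with a median of -0.24 against 0.02. In Perk KO astrocytes 19 of 42 were called, 3 higher and 16 lower, against 10.1% of all genes (4.6% lower), with a median of -0.56 against 0. With the replicate number as a block, 32 members were called in Perk KO astrocytes, 5 higher and 27 lower, where 4288 of all 15164 genes were called, in place of 1539. In WT astrocytes that block gave 36 members, 4 higher and 32 lower, where 9795 of all 14907 genes were called, in place of 7859. Lum was below the filter in each astrocyte comparison and Col6a3 also in the comparison of TM-treated genotypes. In WT neurons the count was 17 without TM-treated WT replicate 1. In Perk KO neurons it was 7 without control Perk KO replicate 2, 6 without control Perk KO replicate 3 and 7 without TM-treated Perk KO replicate 3. Over all genes the calls then were 6649 in place of 8055 in WT neurons, and 2053, 1972 and 2109 in place of 3858 in Perk KO neurons.

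**Figure D2:**
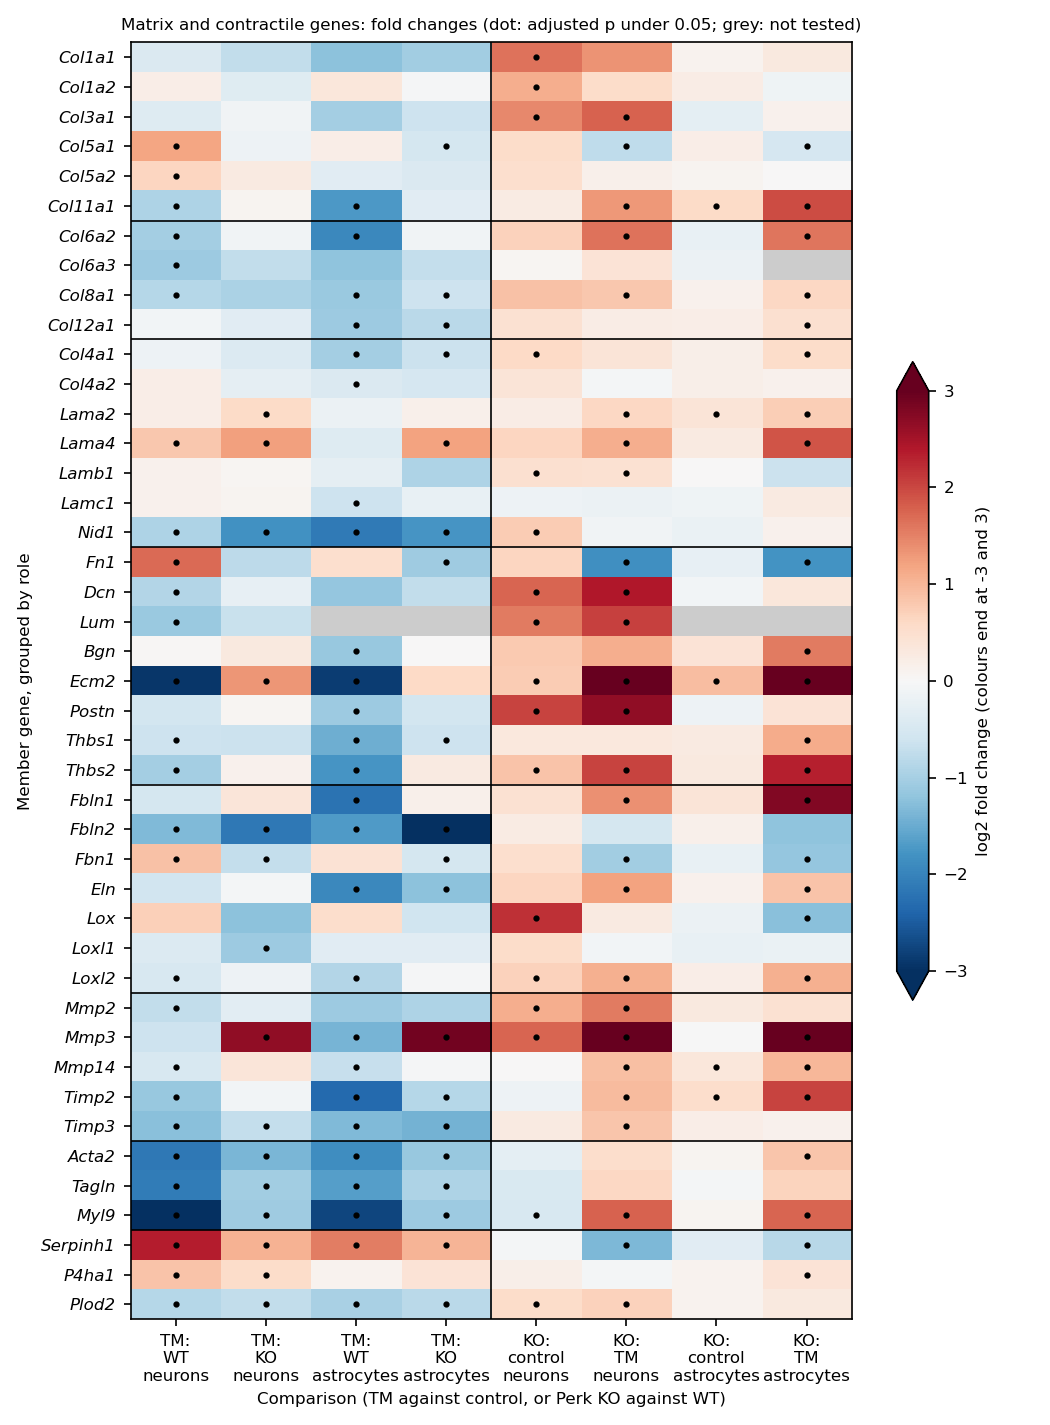
Log2 fold change of each of the 43 members (lines, grouped by role) in the 8 comparisons of 2 groups (columns), from blue (lower) to red (higher), with a dot where the adjusted p was under 0.05 and grey where a gene was not tested. The contractile genes are blue with a dot in all 4 TM columns and Serpinh1 is red with a dot in all 4, while Mmp3 is red in the Perk KO columns of TM.

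Serpinh1, the collagen chaperone of the ER, rose with TM in all 4 settings, and it rose less in Perk KO cells. Its levels were 240.5, 234 and 209 CPM in control WT neurons and 1193, 1147 and 1244 in TM-treated WT neurons. They were 192, 242 and 220.4 CPM in control Perk KO neurons and 539, 376 and 430.5 in TM-treated ones. In neither genotype did control and TM libraries overlap, and every TM-treated Perk KO library lay below every TM-treated WT library. The rise was 5.12-fold in WT neurons (log2 fold change 2.36 ± 0.09, adjusted p = 4.66e-07) and 2.06-fold in Perk KO neurons (log2 fold change 1.04 ± 0.16, adjusted p = 0.00315). In astrocyte cultures the gene had 1028, 1071 and 1078 CPM in control WT astrocytes and 3712, 2987 and 2634 in TM-treated WT astrocytes, and 778, 795 and 932 CPM in control Perk KO astrocytes and 1643, 1708 and 1788 in TM-treated ones. Again no control library overlapped with the TM libraries of its genotype. There the rise was 2.9-fold in WT (log2 fold change 1.54 ± 0.15, adjusted p = 0.000168) and 2.05-fold in Perk KO (log2 fold change 1.03 ± 0.10, adjusted p = 0.000274). The genotypes' responses differed by -1.35 ± 0.18 in neurons (adjusted p = 0.000223) and by -0.52 ± 0.18 in astrocytes (adjusted p = 0.0388), as tested by the genotype by TM interaction. The call of Serpinh1 for the interaction in astrocytes ended without control WT replicate 1 or 2, TM-treated WT replicate 1, control Perk KO replicate 3 or TM-treated Perk KO replicate 1, 2 or 3 (highest adjusted p = 0.0887).

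The other 2 members of the folding group went different ways. Plod2, a lysyl hydroxylase of collagen telopeptides, had 38.3, 39.9 and 46.5 CPM in control WT neurons and 21.8, 24.7 and 24.3 in TM-treated WT neurons. In Perk KO neurons it had 47.3, 70.9 and 63.6 CPM in control and 31, 38.9 and 39.7 in TM-treated libraries. The astrocyte levels were 159, 169.9 and 165 CPM in control WT astrocytes and 96.1, 87.1 and 71.7 in TM-treated WT astrocytes, and 169, 185 and 180.4 CPM in control Perk KO astrocytes and 101, 104 and 104 in TM-treated ones. Every control library lay above the TM libraries of its genotype. Plod2 fell by 0.85 on the log2 scale in WT neurons (adjusted p = 0.000398), 0.73 in Perk KO neurons (adjusted p = 0.0186), 0.97 in WT astrocytes (adjusted p = 0.000574) and 0.80 in Perk KO astrocytes (adjusted p = 0.000429). P4ha1, a catalytic subunit of collagen prolyl hydroxylase, rose in WT neurons (log2 fold change 0.85 ± 0.07, adjusted p = 3.11e-05) and in Perk KO neurons (log2 fold change 0.56 ± 0.13, adjusted p = 0.0189). In astrocytes P4ha1 was not called (WT 0.11 ± 0.14, Perk KO 0.41 ± 0.14). The call of Plod2 with TM in Perk KO neurons ended without control Perk KO replicate 2 or 3 (highest adjusted p = 0.0757), and that of P4ha1 ended without control Perk KO replicate 1 or 3 or TM-treated Perk KO replicate 3 (highest adjusted p = 0.0812). P4ha1 (0.40, adjusted p = 0.000159) passed the threshold with TM in Perk KO astrocytes with the replicate number as a block.

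Among 25 further genes that modify, trim or export collagen, all tested, 16 rose and 4 fell with TM in WT neurons (median 0.55), and 11 rose and 0 fell in Perk KO neurons (median 0.51). P4hb, the protein disulfide isomerase that is also the partner subunit of prolyl hydroxylase, rose in WT neurons (2.29 ± 0.08) and Perk KO neurons (1.52 ± 0.12). Sec24d, a coat protein of the vesicles that export procollagen, rose by 2.13 ± 0.09 and 0.96 ± 0.10 there, and the prolyl hydroxylase P3h1 by 2.37 ± 0.14 in WT neurons. In WT astrocytes 7 of the 25 rose and 11 fell (median -0.29). Sec24d (2.23 ± 0.13) and P3h1 (2.39 ± 0.18) rose, while Pcolce, an enhancer of procollagen trimming (-2.74 ± 0.19), and P4ha3 (-3.45 ± 0.26) fell. In Perk KO astrocytes 8 rose and 1 fell, with P4hb (1.68 ± 0.09) and Ppib (1.03 ± 0.08), a prolyl isomerase, among those that rose. Of all genes tested, 27% rose in WT neurons, 13.1% in Perk KO neurons, 25% in WT astrocytes and 5.55% in Perk KO astrocytes. In WT astrocytes 27.7% of all genes fell.

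The 3 contractile genes fell with TM in every setting. Myl9, the regulatory light chain of smooth muscle myosin whose promoter is printed above, had 63.9, 59.5 and 56.5 CPM in control WT neurons and 6.96, 5.61 and 6.35 in TM-treated WT neurons. It had 45.8, 48 and 35.9 CPM in control Perk KO neurons and 31.1, 12.6 and 18.1 in TM-treated ones. Control and TM libraries did not overlap in either genotype, and TM-treated Perk KO replicate 1 was the highest of its group. The fall was 9.73-fold in WT neurons (log2 fold change -3.28 ± 0.13, adjusted p = 4.66e-07) and 2.09-fold in Perk KO neurons (log2 fold change -1.06 ± 0.30, adjusted p = 0.037). In astrocyte cultures Myl9 had 258, 258 and 285 CPM in control WT astrocytes and 31.4, 40.3 and 48.1 in TM-treated WT astrocytes, and 238, 259 and 353 CPM in control Perk KO astrocytes and 112, 136 and 148 in TM-treated ones. The TM libraries of WT lay below those of Perk KO, and both below all controls. It fell 6.78-fold in WT (log2 fold change -2.76 ± 0.16, adjusted p = 2.34e-05) and 2.15-fold in Perk KO astrocytes (log2 fold change -1.10 ± 0.16, adjusted p = 0.00286). The response differed by genotype in neurons (interaction 2.19 ± 0.36, adjusted p = 0.000855) and astrocytes (1.64 ± 0.25, adjusted p = 0.000397). The call of Myl9 with TM in Perk KO neurons ended without control Perk KO replicate 1, 2 or 3 or TM-treated Perk KO replicate 3 (highest adjusted p = 0.122).

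Acta2, smooth muscle actin, had 341, 314 and 302 CPM in control WT neurons and 90.8, 60.1 and 70.4 in TM-treated WT neurons. In Perk KO neurons it had 266, 283 and 231 CPM in control and 179.7, 53.5 and 70.0 in TM-treated libraries. As for Myl9, TM-treated Perk KO replicate 1 was above replicates 2 and 3 of its group, and control and TM libraries did not overlap. It fell in WT neurons (log2 fold change -2.15 ± 0.14, adjusted p = 7.97e-06) and in Perk KO neurons (log2 fold change -1.36 ± 0.40, adjusted p = 0.0438). In astrocyte cultures Acta2 had 981, 984 and 1017 CPM in control WT astrocytes and 247, 268 and 318 in TM-treated WT astrocytes, and 896, 937 and 1337 CPM in control Perk KO astrocytes and 419, 501 and 534 in TM-treated ones. The order of the groups there was the one seen for Myl9. It fell in WT (log2 fold change -1.86 ± 0.12, adjusted p = 3.43e-05) and Perk KO astrocytes (log2 fold change -1.13 ± 0.16, adjusted p = 0.00262). The interaction was called in astrocytes (0.72 ± 0.22, adjusted p = 0.0243) and missed the threshold in neurons (0.75 ± 0.48, adjusted p = 0.258). The call of Acta2 with TM in Perk KO neurons ended without control Perk KO replicate 1, 2 or 3 or TM-treated Perk KO replicate 3 (highest adjusted p = 0.141). The call of Acta2 for the interaction in astrocytes ended without TM-treated WT replicate 2, control Perk KO replicate 1 or 2 or TM-treated Perk KO replicate 2 or 3 (highest adjusted p = 0.0642).

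Tagln, an actin-binding protein of smooth muscle, was low throughout. It had 3.62, 3.83 and 3.41 CPM in control WT neurons and 1.07, 0.934 and 0.587 in TM-treated WT neurons, and 2.93, 2.96 and 2.08 CPM in control Perk KO neurons and 1.5, 1.45 and 0.884 in TM-treated ones. Its astrocyte levels were 13.2, 12.4 and 15.2 CPM in control WT astrocytes and 2.13, 6.05 and 4.95 in TM-treated WT astrocytes, and 12, 13 and 13.9 CPM in control Perk KO astrocytes and 5.52, 8.07 and 6.87 in TM-treated ones. In all 4 settings every control library was above every TM library. Tagln fell by 2.10 on the log2 scale in WT neurons (adjusted p = 0.000302), 1.05 in Perk KO neurons (adjusted p = 0.0449), 1.65 in WT astrocytes (adjusted p = 0.00439) and 0.93 in Perk KO astrocytes (adjusted p = 0.01). Of its exonic bases 67.9% also lie in exons of Pcsk7 or Gm48529, and reads there cannot be told apart in libraries that do not mark strand, so its level is uncertain. The call of Tagln with TM in Perk KO neurons ended without control Perk KO replicate 1, 2 or 3 or TM-treated Perk KO replicate 3 (highest adjusted p = 0.142).

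Of 18 other genes of actin filaments and of the serum response factor and YAP programs, 11 of 16 tested fell and 3 rose with TM in WT neurons, and 4 of 16 fell and 0 rose in Perk KO neurons. In WT astrocytes 6 of 17 fell and 1 rose, and in Perk KO astrocytes 4 of 17 fell and 0 rose. Of all genes tested, 24.8% fell in WT neurons, 10.8% in Perk KO neurons, 27.7% in WT astrocytes and 4.6% in Perk KO astrocytes. Cnn2, a calponin, fell by 2.14 and 1.59 on the log2 scale in WT and Perk KO neurons. Lmod1, a leiomodin of smooth muscle, fell by 2.46 in WT neurons and 2.45 in WT astrocytes.

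**Figure D3:**
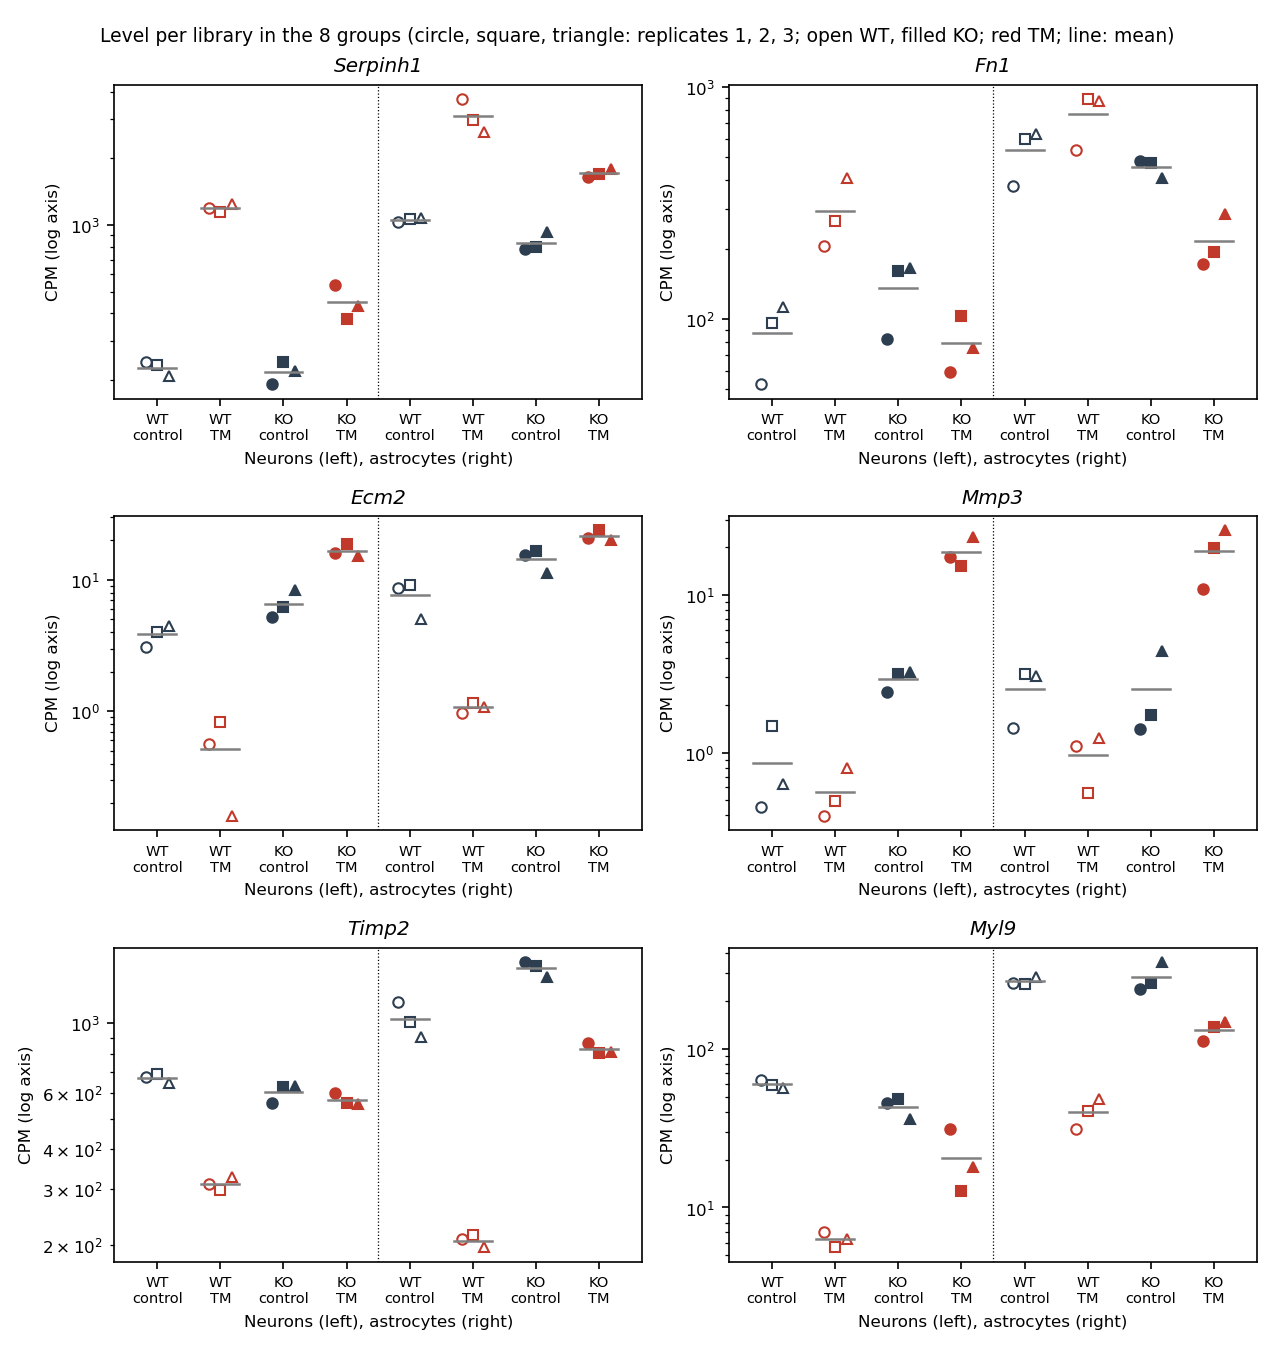
Level (CPM, log axis) of 6 members in every library of the 8 groups, neurons left and astrocytes right of the dotted line; open symbols are WT, filled symbols Perk KO, red symbols TM-treated, symbol shape the replicate number and lines the group mean. Ecm2 and Mmp3 separate the TM-treated genotypes most, and Serpinh1 and Fn1 are higher in TM-treated WT than in TM-treated Perk KO libraries.

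Of the 6 fibrillar collagens, 2 rose and 1 fell with TM in WT neurons, and 0 were called in Perk KO neurons. In each astrocyte genotype 1 fell. With the replicate number as a block, 4 fell in WT astrocytes (Col1a1, Col3a1, Col5a2 and Col11a1) and 5 in Perk KO astrocytes (those and Col5a1). Col1a1 had 11.2, 36.7 and 40.4 CPM in control WT neurons and 7.64, 29 and 30.3 in TM-treated WT neurons. It had 40.8, 119.8 and 114 CPM in control Perk KO neurons and 19.1, 77 and 70.3 in TM-treated ones. Its astrocyte levels were 14.8, 30.2 and 56.7 CPM in control WT astrocytes and 4.95, 15.3 and 23.7 in TM-treated WT astrocytes, and 31.7, 27.7 and 50.05 CPM in control Perk KO astrocytes and 9.8, 13.2 and 30.5 in TM-treated ones. Replicate 1 was the lowest library in all 4 neuron groups and in 3 astrocyte groups, and control and TM groups overlapped in every setting. No TM comparison of it was called, with -0.43 ± 0.55 in WT neurons, -0.73 ± 0.54 in Perk KO neurons, -1.22 ± 0.59 in WT astrocytes and -1.04 ± 0.38 in Perk KO astrocytes. Col1a1 (-1.26, adjusted p = 5.5e-05) passed the threshold with TM in WT astrocytes, and Col1a1 (-1.12, adjusted p = 3.65e-05) with TM in Perk KO astrocytes, with the replicate number as a block. With that block Col1a1 was also called lower with TM in WT and in Perk KO neurons, where the numbers were not taken to pair libraries.

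Col1a2, the other chain of type I collagen, had 23.8, 39.9 and 45.4 CPM in control WT neurons and 25.5, 47.5 and 54.1 in TM-treated WT neurons, and 42.2, 86 and 104 CPM in control Perk KO neurons and 29.5, 71.8 and 78.9 in TM-treated ones. In astrocyte cultures it had 33.7, 52.1 and 54.4 CPM in control WT astrocytes and 61, 66.6 and 53.4 in TM-treated WT astrocytes, and 46.6, 50.3 and 66.8 CPM in control Perk KO astrocytes and 44.6, 48.5 and 68 in TM-treated ones. Control and TM libraries overlapped in every setting, and no TM comparison was called, with log2 fold changes from -0.37 in Perk KO neurons to 0.35 in WT astrocytes. With the replicate number as a block Col1a2 was called lower with TM in Perk KO neurons. Col3a1, the chain of type III collagen, had 21.2, 19.4 and 13.7 CPM in control WT neurons and 15.7, 12.8 and 14.4 in TM-treated WT neurons, and 48.2, 50.3 and 51 CPM in control Perk KO neurons and 38.5, 54.1 and 47.4 in TM-treated ones. Its astrocyte levels were 12.6, 35.4 and 49.99 CPM in control WT astrocytes and 4.78, 20.3 and 23.5 in TM-treated WT astrocytes, and 12.4, 23.5 and 44.3 CPM in control Perk KO astrocytes and 6.54, 17.7 and 28.2 in TM-treated ones. Every Perk KO neuron library of Col3a1 lay above every WT neuron library, while in astrocytes replicate 1 was the lowest in all 4 groups. None of its TM comparisons was called: the values were -0.38 ± 0.18 in WT neurons, -0.10 ± 0.13 in Perk KO neurons, -1.03 ± 0.60 in WT astrocytes and -0.62 ± 0.52 in Perk KO astrocytes. Col3a1 (-1.08, adjusted p = 0.00013) passed the threshold with TM in WT astrocytes, and Col3a1 (-0.64, adjusted p = 0.000479) with TM in Perk KO astrocytes, with the replicate number as a block.

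Col5a1 and Col11a1, chains of collagens V and XI that are minor partners in collagen fibrils, responded in a way that depended on genotype, whereas for Col5a2 no such difference was called. Col5a1 rose in WT neurons (log2 fold change 1.19 ± 0.19, adjusted p = 0.000929) and was -0.16 ± 0.25 in Perk KO neurons. In astrocytes it was 0.21 ± 0.14 in WT and fell in Perk KO (log2 fold change -0.52 ± 0.13, adjusted p = 0.0423). Its interaction was called in neurons (-1.38 ± 0.35, adjusted p = 0.0106) and astrocytes (-0.74 ± 0.21, adjusted p = 0.0183). Col5a2 rose in WT neurons (log2 fold change 0.64 ± 0.16, adjusted p = 0.00822) and was 0.26 ± 0.22 in Perk KO neurons, -0.35 ± 0.15 in WT astrocytes and -0.43 ± 0.15 in Perk KO astrocytes. Its interaction was -0.41 ± 0.30 in neurons (adjusted p = 0.32) and -0.09 ± 0.24 in astrocytes (adjusted p = 0.799). Col11a1 had 36, 34.1 and 48.8 CPM in control WT neurons and 17, 19.3 and 27.6 in TM-treated WT neurons, and 32.3, 53.7 and 56.5 CPM in control Perk KO neurons and 40.8, 54.4 and 55.5 in TM-treated ones. Astrocyte cultures had 82.6, 95.5 and 89.1 CPM in control WT astrocytes and 30.6, 26.1 and 25.3 in TM-treated WT astrocytes, and 127, 140.5 and 129 CPM in control Perk KO astrocytes and 89.5, 106 and 116 in TM-treated ones. The TM-treated WT astrocyte libraries lay apart from and below all other astrocyte libraries. Col11a1 fell in WT neurons (log2 fold change -0.93 ± 0.21, adjusted p = 0.00567) and WT astrocytes (log2 fold change -1.72 ± 0.12, adjusted p = 3.62e-05), and was 0.08 ± 0.22 and -0.35 ± 0.11 in the Perk KO cultures. Its interaction was called in neurons (0.98 ± 0.33, adjusted p = 0.0442) and in astrocytes (1.35 ± 0.16, adjusted p = 6.91e-05), with the opposite sign to that of Col5a1. The call of Col5a1 with TM in Perk KO astrocytes ended without control Perk KO replicate 1, 2 or 3 or TM-treated Perk KO replicate 1 or 2 (highest adjusted p = 0.185). The call of Col11a1 for the interaction in neurons ended without control WT replicate 1 or 3, TM-treated WT replicate 1 or 2, control Perk KO replicate 1 or 2 or TM-treated Perk KO replicate 2 or 3 (highest adjusted p = 0.113). Col5a2 (-0.35, adjusted p = 0.00484) passed the threshold with TM in WT astrocytes, and Col5a2 (-0.43, adjusted p = 8.25e-05) and Col11a1 (-0.36, adjusted p = 0.00187) with TM in Perk KO astrocytes, with the replicate number as a block.

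Of the 4 other collagens, 3 fell with TM in WT neurons, namely Col6a2 (-1.01 ± 0.36), Col6a3 (-1.08 ± 0.32) and Col8a1 (-0.85 ± 0.26). In WT astrocytes 3 fell, Col6a2 (-1.93 ± 0.34), Col8a1 (-1.12 ± 0.11) and Col12a1 (-1.08 ± 0.14), while Col6a3 was -1.21 ± 0.82. In Perk KO astrocytes Col8a1 (-0.63 ± 0.12) and Col12a1 (-0.80 ± 0.13) fell as well, and in Perk KO neurons 0 of 4 were called. The response of Col6a2, a chain of type VI collagen, differed between genotypes in astrocytes (interaction 1.81 ± 0.54, adjusted p = 0.0214). Among 30 further collagen genes, 12 of 18 tested fell and 1 rose in WT astrocytes (median -1.04), led by Col8a2 (-3.96 ± 0.27) and Col6a1 (-2.68 ± 0.35). In WT neurons 9 of 26 fell and 2 rose, with Col25a1, a membrane collagen of neurons, at -1.87 ± 0.17. In the Perk KO cultures 3 fell and 1 rose of 27 in neurons, and 2 fell and 1 rose of 18 in astrocytes. The shares of all genes that fell were 27.7% in WT astrocytes, 24.8% in WT neurons, 10.8% in Perk KO neurons and 4.6% in Perk KO astrocytes. The call of Col6a2 with TM in WT neurons ended without control WT replicate 2 or 3 or TM-treated WT replicate 1 or 3 (highest adjusted p = 0.14), and that of Col6a3 ended without control WT replicate 2 or TM-treated WT replicate 1 or 3 (highest adjusted p = 0.0762). That of Col8a1 ended without TM-treated WT replicate 1 (highest adjusted p = 0.0596). The call of Col8a1 with TM in Perk KO astrocytes ended without TM-treated Perk KO replicate 2 (highest adjusted p = 0.0727). The call of Col6a2 for the interaction in astrocytes ended without control WT replicate 3, TM-treated WT replicate 2, control Perk KO replicate 2 or TM-treated Perk KO replicate 3 (highest adjusted p = 0.0531). Col6a3 (-1.26, adjusted p = 0.0374) passed the threshold with TM in WT astrocytes with the replicate number as a block. With that block Col8a1 was called lower with TM in Perk KO neurons.

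Among basement membrane genes, Nid1 fell in all 4 settings and Lama4 rose in 3. Nid1 encodes nidogen, which links laminin to type IV collagen. It had 16.5, 16 and 15.3 CPM in control WT neurons and 8.37, 8.57 and 8.81 in TM-treated WT neurons, and 32, 22.6 and 26.2 CPM in control Perk KO neurons and 7.25, 10.6 and 5.41 in TM-treated ones. Its astrocyte levels were 11.9, 17.3 and 25.9 CPM in control WT astrocytes and 2.53, 3.06 and 7.27 in TM-treated WT astrocytes, and 13.2, 15.3 and 19.1 CPM in control Perk KO astrocytes and 3.59, 4.12 and 6.24 in TM-treated ones. Control and TM libraries were apart in all 4 settings. The values were -0.92 ± 0.13 in WT neurons (adjusted p = 0.000368), -1.81 ± 0.25 in Perk KO neurons (adjusted p = 0.00221), -2.11 ± 0.43 in WT astrocytes (adjusted p = 0.00468) and -1.77 ± 0.23 in Perk KO astrocytes (adjusted p = 0.00165). In neurons the fall was larger in Perk KO (interaction -0.91 ± 0.29, adjusted p = 0.0307), from a higher control level. The call of Nid1 for the interaction in neurons ended without control WT replicate 1 or 2, TM-treated WT replicate 1 or 3, control Perk KO replicate 1 or 3 or TM-treated Perk KO replicate 1 (highest adjusted p = 0.0756).

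Col4a1, a chain of type IV collagen, had 87.5, 98.3 and 95.8 CPM in control WT neurons and 72.8, 80.6 and 104 in TM-treated WT neurons, and 122, 149 and 159 CPM in control Perk KO neurons and 95.2, 112 and 115 in TM-treated ones. In astrocyte cultures it had 351, 405 and 482 CPM in control WT astrocytes and 206, 201 and 217 in TM-treated WT astrocytes, and 461, 417 and 520.5 CPM in control Perk KO astrocytes and 269, 257 and 374 in TM-treated ones. Control and TM libraries were apart in both astrocyte genotypes and in Perk KO neurons, and overlapped in WT neurons. It fell in WT astrocytes (log2 fold change -1.01 ± 0.13, adjusted p = 0.000542) and Perk KO astrocytes (log2 fold change -0.64 ± 0.15, adjusted p = 0.0274) but was not called in WT neurons (-0.16 ± 0.14) or Perk KO neurons (-0.41 ± 0.13). Col4a2 starts beside Col4a1 on the opposite strand, and reads in the overlap cannot be assigned; it fell in WT astrocytes (log2 fold change -0.44 ± 0.16, adjusted p = 0.0471) and was -0.50 ± 0.20 in Perk KO astrocytes. The call of Col4a1 with TM in Perk KO astrocytes ended without control Perk KO replicate 1, 2 or 3 or TM-treated Perk KO replicate 1 or 2 (highest adjusted p = 0.13). The call of Col4a2 with TM in WT astrocytes ended without control WT replicate 2 or 3 or TM-treated WT replicate 1, 2 or 3 (highest adjusted p = 0.147). Col4a2 (-0.53, adjusted p = 0.000219) passed the threshold with TM in Perk KO astrocytes with the replicate number as a block. With that block Col4a1 was called lower with TM in Perk KO neurons.

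Lama4, a laminin alpha chain of vessels, rose in WT neurons (log2 fold change 0.81 ± 0.19, adjusted p = 0.00792), Perk KO neurons (log2 fold change 1.24 ± 0.16, adjusted p = 0.00195) and Perk KO astrocytes (log2 fold change 1.21 ± 0.28, adjusted p = 0.0258), and was -0.39 ± 0.27 in WT astrocytes. Its interaction in astrocytes was 1.59 ± 0.41 (adjusted p = 0.0103). Lama2 rose in Perk KO neurons (log2 fold change 0.57 ± 0.15, adjusted p = 0.0309). Lamc1 fell in WT astrocytes (log2 fold change -0.62 ± 0.11, adjusted p = 0.00267), and was -0.23 ± 0.11 in Perk KO astrocytes. Lamb1 was not called in any of the 4, with 0.13 ± 0.11 in WT neurons, 0.07 ± 0.15 in Perk KO neurons, -0.27 ± 0.37 in WT astrocytes and -0.93 ± 0.28 in Perk KO astrocytes. Of 10 other laminin, nidogen and basement membrane genes, 2 of 9 tested rose and 2 fell in WT neurons, and 1 of 9 rose and 6 fell in WT astrocytes. Among all genes tested 27% rose and 24.8% fell in WT neurons, and 25% and 27.7% in WT astrocytes. Lama1, another laminin alpha chain, rose in WT neurons (3.77 ± 0.18) and WT astrocytes (3.08 ± 0.16), while Agrn, agrin, fell in both (-0.52 ± 0.12 and -1.55 ± 0.11). The call of Lama4 with TM in Perk KO astrocytes ended without control Perk KO replicate 2 or TM-treated Perk KO replicate 1 or 3 (highest adjusted p = 0.0777). The call of Lama2 with TM in Perk KO neurons ended without control Perk KO replicate 1, 2 or 3 or TM-treated Perk KO replicate 3 (highest adjusted p = 0.109). Lamc1 (-0.23, adjusted p = 0.0385) and Lamb1 (-0.97, adjusted p = 0.000187) passed the threshold with TM in Perk KO astrocytes with the replicate number as a block.

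Fibronectin and the leucine-rich protein Ecm2 responded to TM in opposite ways, and in both the response depended on genotype. Fn1 had 52.4, 96.1 and 113 CPM in control WT neurons and 206, 264 and 406 in TM-treated WT neurons. It had 81.9, 162 and 167 CPM in control Perk KO neurons and 59.3, 104 and 75.4 in TM-treated ones. The WT libraries did not overlap between control and TM, whereas the Perk KO libraries did. Fn1 rose 3.28-fold in WT neurons (log2 fold change 1.71 ± 0.31, adjusted p = 0.00194) and was -0.79 ± 0.29 in Perk KO neurons, where it missed the threshold (adjusted p = 0.0872). Its levels in astrocyte cultures were 374, 600.4 and 629 CPM in control WT astrocytes and 537, 893 and 873 in TM-treated WT astrocytes, and 481, 470.4 and 406 CPM in control Perk KO astrocytes and 173, 194 and 285 in TM-treated ones. There the WT libraries overlapped and the Perk KO libraries did not. It fell 2.09-fold in Perk KO astrocytes (log2 fold change -1.06 ± 0.17, adjusted p = 0.00498) and was 0.50 ± 0.24 in WT astrocytes. The genotypes' responses differed by -2.53 ± 0.49 in neurons (adjusted p = 0.00251) and -1.58 ± 0.34 in astrocytes (adjusted p = 0.00398). Fn1 (0.50, adjusted p = 0.000391) passed the threshold with TM in WT astrocytes with the replicate number as a block. With that block Fn1 was called lower with TM in Perk KO neurons.

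Ecm2 had 3.06, 4.03 and 4.48 CPM in control WT neurons and 0.566, 0.824 and 0.16 in TM-treated WT neurons, a 7.58-fold fall (log2 fold change -2.92 ± 0.43, adjusted p = 0.000577). It had 5.18, 6.2 and 8.36 CPM in control Perk KO neurons and 15.9, 18.6 and 15.1 in TM-treated ones, a 2.51-fold rise (log2 fold change 1.33 ± 0.20, adjusted p = 0.00327). The 2 treatments did not overlap in either genotype. In astrocyte cultures Ecm2 had 8.61, 9.18 and 5.01 CPM in control WT astrocytes and 0.979, 1.16 and 1.08 in TM-treated WT astrocytes, and 15.5, 16.4 and 11.2 CPM in control Perk KO astrocytes and 20.9, 23.8 and 20.1 in TM-treated ones. It fell 7.16-fold in WT (log2 fold change -2.84 ± 0.31, adjusted p = 0.000244) and was 0.59 ± 0.17 in Perk KO astrocytes, where it missed the threshold (adjusted p = 0.0568). The interactions were 4.22 ± 0.46 in neurons (adjusted p = 5.78e-05) and 3.41 ± 0.34 in astrocytes (adjusted p = 2.23e-05). TM-treated WT libraries were near the lower limit of measurement, so the folds there rest on few counts. Ecm2 (0.59, adjusted p = 0.000896) passed the threshold with TM in Perk KO astrocytes with the replicate number as a block.

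The fibroblast proteoglycans Dcn and Lum and the matricellular protein Postn were low and variable. Dcn, decorin, had 5.37, 3.78 and 5.55 CPM in control WT neurons and 2.49, 3.63 and 2.03 in TM-treated WT neurons, and 17.7, 15.4 and 16 CPM in control Perk KO neurons and 7.8, 19.9 and 14.1 in TM-treated ones. In astrocyte cultures it had 1, 4.56 and 6.08 CPM in control WT astrocytes and 0.633, 2.44 and 2.15 in TM-treated WT astrocytes, and 0.706, 3.8 and 6.39 CPM in control Perk KO astrocytes and 1.29, 2.15 and 3.09 in TM-treated ones. Every control Perk KO neuron library lay above every WT neuron library, while in astrocytes replicate 1 was the lowest of each group. Dcn fell with TM in WT neurons (log2 fold change -0.88 ± 0.27, adjusted p = 0.022) and was not called in Perk KO neurons (-0.24 ± 0.29), WT astrocytes (-1.16 ± 0.67) or Perk KO astrocytes (-0.74 ± 0.63). Lum, lumican, had 3.31, 1.18 and 2.15 CPM in control WT neurons and 1.02, 1.26 and 0.854 in TM-treated WT neurons, and 8.51, 4.69 and 6.5 CPM in control Perk KO neurons and 3.03, 5.12 and 4.37 in TM-treated ones. Its astrocyte levels were 0.143, 0.22 and 0.32 CPM in control WT astrocytes and 0, 0.0611 and 0.108 in TM-treated WT astrocytes, and 0.109, 0.224 and 0.11 CPM in control Perk KO astrocytes and 0, 0.0565 and 0 in TM-treated ones, a few counts per library, and were not tested. Lum fell with TM in WT neurons (log2 fold change -1.11 ± 0.40, adjusted p = 0.0459), where control and TM libraries overlapped, and was -0.67 ± 0.28 in Perk KO neurons. The call of Dcn with TM in WT neurons ended without control WT replicate 1 or TM-treated WT replicate 1 or 3 (highest adjusted p = 0.075), and that of Lum ended without control WT replicate 1 or 3 or TM-treated WT replicate 1, 2 or 3 (highest adjusted p = 0.174). Dcn (-1.11, adjusted p = 0.00783) passed the threshold with TM in WT astrocytes with the replicate number as a block. With that block the calls of Dcn and Lum with TM in WT neurons ended.

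Postn, periostin, had 2.81, 3.39 and 3.41 CPM in control WT neurons and 1.53, 4.12 and 1.01 in TM-treated WT neurons, and 9.32, 18.3 and 12 CPM in control Perk KO neurons and 7.05, 26.3 and 7.96 in TM-treated ones. In both TM groups of neurons replicate 2 was the highest library, and control and TM libraries overlapped. The astrocyte levels were 6.84, 10.3 and 14 CPM in control WT astrocytes and 3.51, 3.97 and 7.21 in TM-treated WT astrocytes, and 8.74, 8.49 and 10.8 CPM in control Perk KO astrocytes and 6.21, 6.21 and 6.93 in TM-treated ones. Postn fell in WT astrocytes (log2 fold change -1.10 ± 0.35, adjusted p = 0.0289) and was -0.54 ± 0.17 in Perk KO astrocytes, -0.56 ± 0.45 in WT neurons and 0.05 ± 0.50 in Perk KO neurons. Bgn, the proteoglycan biglycan, fell in WT astrocytes (log2 fold change -1.13 ± 0.20, adjusted p = 0.00207) and was 0.02 ± 0.22 in Perk KO astrocytes, with an interaction of 1.14 ± 0.34 (adjusted p = 0.0232). The call of Postn with TM in WT astrocytes ended without control WT replicate 2 or 3 or TM-treated WT replicate 1 or 2 (highest adjusted p = 0.1). The call of Bgn for the interaction in astrocytes ended without control WT replicate 2 or TM-treated Perk KO replicate 3 (highest adjusted p = 0.0582). Postn (-0.53, adjusted p = 0.013) passed the threshold with TM in Perk KO astrocytes with the replicate number as a block.

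Both thrombospondins fell in the WT cultures. Thbs1, the most abundant of its group per kilobase in control WT astrocytes, fell in WT neurons (log2 fold change -0.61 ± 0.14, adjusted p = 0.00584), WT astrocytes (log2 fold change -1.46 ± 0.14, adjusted p = 0.000146) and Perk KO astrocytes (log2 fold change -0.62 ± 0.09, adjusted p = 0.00286). Its fall was smaller in Perk KO than in WT astrocytes (interaction 0.82 ± 0.16, adjusted p = 0.00232), while in neurons the interaction was -0.07 ± 0.29 and not called. Thbs2 had 8.47, 11.1 and 12.9 CPM in control WT astrocytes and 1.5, 3.18 and 4.95 in TM-treated WT astrocytes, and 14.1, 12.2 and 13.7 CPM in control Perk KO astrocytes and 16, 13.1 and 19.2 in TM-treated ones. In neuron cultures it had 6.33, 12.6 and 9.15 CPM in control WT neurons and 4.13, 3.57 and 6.41 in TM-treated WT neurons, and 14.9, 19.2 and 17 CPM in control Perk KO neurons and 16.9, 20.6 and 18 in TM-treated ones. In astrocytes the TM-treated WT libraries lay below all others, and in neurons control and TM libraries of WT overlapped, by TM-treated replicate 3 above control replicate 1. Thbs2 fell in WT astrocytes (log2 fold change -1.77 ± 0.39, adjusted p = 0.00609) and WT neurons (log2 fold change -1.02 ± 0.30, adjusted p = 0.0208), and was 0.27 ± 0.16 and 0.12 ± 0.14 in the Perk KO cultures. The interaction was called in astrocytes (2.01 ± 0.43, adjusted p = 0.00375) and in neurons (1.11 ± 0.35, adjusted p = 0.0328). The call of Thbs2 with TM in WT neurons ended without control WT replicate 2 or TM-treated WT replicate 1 or 2 (highest adjusted p = 0.0763). The call of Thbs2 for the interaction in neurons ended without control WT replicate 2, TM-treated WT replicate 1 or 2, control Perk KO replicate 1 or 3 or TM-treated Perk KO replicate 3 (highest adjusted p = 0.0927).

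In the elastic fibre group, Fbln2 fell in all 4 settings, and Fbn1, like Fn1, rose in WT neurons and fell in Perk KO astrocytes. Fbln2, a fibulin of basement membranes and elastic fibres, had 4.92, 17.3 and 6.75 CPM in control WT neurons and 2.38, 4.84 and 4.59 in TM-treated WT neurons, and 2.7, 18.4 and 13.8 CPM in control Perk KO neurons and 2.13, 3.45 and 2.36 in TM-treated ones. Its astrocyte levels were 12.5, 12.4 and 21.6 CPM in control WT astrocytes and 2.88, 3.42 and 7.97 in TM-treated WT astrocytes, and 16.4, 11.1 and 24.2 CPM in control Perk KO astrocytes and 1.72, 1.3 and 3.15 in TM-treated ones. Astrocyte controls lay above TM libraries in both genotypes. In neurons replicate 1 was the lowest of each group, and controls and TM libraries overlapped in Perk KO and not in WT. Fbln2 fell 8.42-fold in Perk KO astrocytes (log2 fold change -3.07 ± 0.37, adjusted p = 0.000976), the largest fall of a member there, and 3.28-fold in WT astrocytes (log2 fold change -1.71 ± 0.40, adjusted p = 0.00864). In neurons it was -1.33 ± 0.47 in WT (adjusted p = 0.0423) and -2.14 ± 0.61 in Perk KO (adjusted p = 0.0378). The call of Fbln2 with TM in WT neurons ended without control WT replicate 2 or TM-treated WT replicate 1, 2 or 3 (highest adjusted p = 0.159). The call of Fbln2 with TM in Perk KO neurons ended without control Perk KO replicate 2 or 3 or TM-treated Perk KO replicate 1 or 3 (highest adjusted p = 0.132).

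Fbn1, fibrillin, rose in WT neurons (log2 fold change 0.88 ± 0.18, adjusted p = 0.00333), fell in Perk KO neurons (log2 fold change -0.71 ± 0.22, adjusted p = 0.0483) and Perk KO astrocytes (log2 fold change -0.53 ± 0.11, adjusted p = 0.0177), and was 0.43 ± 0.17 in WT astrocytes. Its interaction was -1.62 ± 0.31 in neurons (adjusted p = 0.00207) and -0.97 ± 0.21 in astrocytes (adjusted p = 0.00446). Of its exonic bases 20.1% are shared with Gm9913. Fbln1, a related fibulin, fell in WT astrocytes (log2 fold change -2.22 ± 0.36, adjusted p = 0.0016) and was 0.15 ± 0.17 in Perk KO astrocytes, an interaction of 2.35 ± 0.38 (adjusted p = 6e-04). Eln, elastin, fell in WT astrocytes (log2 fold change -1.94 ± 0.20, adjusted p = 0.000207) and Perk KO astrocytes (log2 fold change -1.23 ± 0.22, adjusted p = 0.00733). The call of Fbn1 with TM in Perk KO neurons ended without control Perk KO replicate 2 or 3 or TM-treated Perk KO replicate 1 or 3 (highest adjusted p = 0.164). The call of Fbn1 with TM in Perk KO astrocytes ended without control Perk KO replicate 1 or 2 or TM-treated Perk KO replicate 1 or 2 (highest adjusted p = 0.0906). Fbn1 (0.45, adjusted p = 0.00369) passed the threshold with TM in WT astrocytes with the replicate number as a block.

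Of the lysyl oxidases, Lox was called in 0 of the 4 TM comparisons, with 0.71 ± 0.50 in WT neurons, -1.24 ± 0.53 in Perk KO neurons, 0.52 ± 0.28 in WT astrocytes and -0.59 ± 0.36 in Perk KO astrocytes. Loxl1 fell in Perk KO neurons (log2 fold change -1.10 ± 0.22, adjusted p = 0.0099) and was -0.42 ± 0.18 in WT neurons, -0.35 ± 0.15 in WT astrocytes and -0.34 ± 0.19 in Perk KO astrocytes. Loxl2 fell in WT neurons (log2 fold change -0.48 ± 0.17, adjusted p = 0.0452) and WT astrocytes (log2 fold change -0.89 ± 0.18, adjusted p = 0.00418), and its interaction there was 0.85 ± 0.27 (adjusted p = 0.0286). The call of Loxl2 with TM in WT neurons ended without control WT replicate 2 or TM-treated WT replicate 1 or 2 (highest adjusted p = 0.156). The call of Loxl2 for the interaction in astrocytes ended without control WT replicate 3, TM-treated WT replicate 2, control Perk KO replicate 1 or 2 or TM-treated Perk KO replicate 3 (highest adjusted p = 0.0719). Lox (0.53, adjusted p = 0.00322) and Loxl1 (-0.35, adjusted p = 0.00419) passed the threshold with TM in WT astrocytes, and Lox (-0.66, adjusted p = 0.000183) and Loxl1 (-0.35, adjusted p = 0.00344) with TM in Perk KO astrocytes, with the replicate number as a block. The interaction of Lox was called in neither cell type without that block and in both with it. With the block Lox was also called with TM in neurons, higher in WT and lower in Perk KO. In these neuron comparisons the numbers were not taken to pair libraries. The call of Loxl2 with TM in WT neurons ended with the block.

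Among proteases and inhibitors, Mmp3 rose with TM in Perk KO cultures and not in WT cultures, a difference that the interaction called in both cell types. Mmp3, stromelysin, cleaves many matrix proteins, and its promoter with an AP-1 site is printed above. It had 0.452, 1.47 and 0.631 CPM in control WT neurons and 0.396, 0.495 and 0.801 in TM-treated WT neurons. It had 2.43, 3.13 and 3.23 CPM in control Perk KO neurons and 17.3, 15.2 and 23.2 in TM-treated ones. All Perk KO libraries lay above all WT libraries, and the TM-treated Perk KO libraries above all others. The rise in Perk KO neurons was 6.36-fold (log2 fold change 2.67 ± 0.22, adjusted p = 0.000385), and the value in WT neurons was -0.63 ± 0.53, not called. The astrocyte levels of Mmp3 were 1.44, 3.13 and 3.04 CPM in control WT astrocytes and 1.09, 0.55 and 1.24 in TM-treated WT astrocytes, and 1.41, 1.73 and 4.41 CPM in control Perk KO astrocytes and 10.9, 19.9 and 25.7 in TM-treated ones. There the controls of both genotypes overlapped, and the TM-treated Perk KO libraries again lay above all others. Mmp3 rose 7.46-fold in Perk KO (log2 fold change 2.90 ± 0.44, adjusted p = 0.00342) and fell 2.64-fold in WT astrocytes (log2 fold change -1.40 ± 0.43, adjusted p = 0.0266). The interactions were 3.27 ± 0.54 in neurons (adjusted p = 0.000884) and 4.28 ± 0.69 in astrocytes (adjusted p = 0.000642). WT libraries held few counts of the gene, a mean of 13.3 over the 6 of neurons and 32.5 over the 6 of astrocytes. The call of Mmp3 with TM in WT astrocytes ended without control WT replicate 2 or 3 or TM-treated WT replicate 2 (highest adjusted p = 0.0891).

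Timp2, an inhibitor of matrix proteases that also takes part in activating Mmp2, had 677, 689 and 648 CPM in control WT neurons and 311, 297 and 328 in TM-treated WT neurons. It had 558, 628 and 633 CPM in control Perk KO neurons and 603, 559 and 557 in TM-treated ones. In astrocyte cultures it had 1166, 1010 and 907 CPM in control WT astrocytes and 208, 214 and 196 in TM-treated WT astrocytes, and 1561, 1515 and 1394 CPM in control Perk KO astrocytes and 865, 805 and 813 in TM-treated ones. In each cell type the TM-treated WT libraries lay below all others. Timp2 fell in WT neurons (log2 fold change -1.14 ± 0.08, adjusted p = 9.52e-06) and was -0.08 ± 0.10 in Perk KO neurons, with an interaction of 1.03 ± 0.11 (adjusted p = 4.54e-05). It fell in WT (log2 fold change -2.34 ± 0.13, adjusted p = 2.34e-05) and Perk KO astrocytes (log2 fold change -0.85 ± 0.09, adjusted p = 0.000515), with an interaction of 1.47 ± 0.15 (adjusted p = 2.4e-05).

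Mmp14, the membrane protease that activates Mmp2, fell in WT neurons (log2 fold change -0.49 ± 0.14, adjusted p = 0.0165) and WT astrocytes (log2 fold change -0.69 ± 0.11, adjusted p = 0.00174). Its interactions were 0.83 ± 0.18 in neurons (adjusted p = 0.00511) and 0.64 ± 0.14 in astrocytes (adjusted p = 0.00367). Mmp2 itself, a gelatinase, fell in WT neurons (log2 fold change -0.73 ± 0.21, adjusted p = 0.018) and was not called elsewhere, with -0.31 ± 0.20 in Perk KO neurons, -1.08 ± 0.44 in WT astrocytes and -0.93 ± 0.29 in Perk KO astrocytes. Timp3, an inhibitor bound to the matrix, fell in all 4, with -1.25 ± 0.17 in WT neurons, -0.71 ± 0.16 in Perk KO neurons, -1.33 ± 0.16 in WT astrocytes and -1.41 ± 0.13 in Perk KO astrocytes. Of the exonic bases of Timp3 21.3% are shared with Syn3. Of 20 further proteases and inhibitors, 7 of 18 tested rose and 7 fell in WT neurons, and 2 of 18 rose and 6 fell in WT astrocytes, with Timp4 at -2.29 ± 0.13 and -3.94 ± 0.31. Among all genes tested 27% rose and 24.8% fell in WT neurons, and 25% and 27.7% in WT astrocytes. The call of Mmp14 with TM in WT neurons ended without control WT replicate 1 or TM-treated WT replicate 1 or 2 (highest adjusted p = 0.07), and that of Mmp2 ended without TM-treated WT replicate 1 or 2 (highest adjusted p = 0.0691). The call of Timp3 with TM in Perk KO neurons ended without control Perk KO replicate 2 or 3 or TM-treated Perk KO replicate 3 (highest adjusted p = 0.0665). Mmp2 (-1.16, adjusted p = 0.000524) passed the threshold with TM in WT astrocytes, and Mmp2 (-0.92, adjusted p = 2.38e-05) with TM in Perk KO astrocytes, with the replicate number as a block.

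Tested directly, the TM response of 12 of 43 members differed by genotype in neurons, 7 with a higher and 5 with a lower value in Perk KO. Of all genes tested 29.8% did, so the count in neurons was near the share over all genes. In astrocytes the response of 18 of 42 members differed, 14 higher and 4 lower, against 34.4% of all genes (19.8% higher). The replicate block gave 24 members in astrocytes, 17 higher and 7 lower, where 7449 of all 15114 genes were called, in place of 5203. The members' medians were 0.25 in neurons and 0.38 in astrocytes, against -0.08 and 0.01 over all genes. The neuron and astrocyte interactions share no library. They had 11 members in common, 91.7% of the neuron list and 61.1% of the astrocyte list. Col5a1, Fn1, Fbn1 and Serpinh1 were lower in Perk KO in both, and Col11a1, Ecm2, Thbs2, Mmp3, Mmp14, Timp2 and Myl9 were higher in both, so all 11 had the same sign. The overlap and its signs were not counted over all genes, so whether this agreement is particular to the members is not known. Nid1 was called in neurons alone, and Col6a2, Lama4, Bgn, Thbs1, Fbln1, Loxl2 and Acta2 in astrocytes alone, but whether the interactions differ between cell types was not tested.

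**Figure D4:**
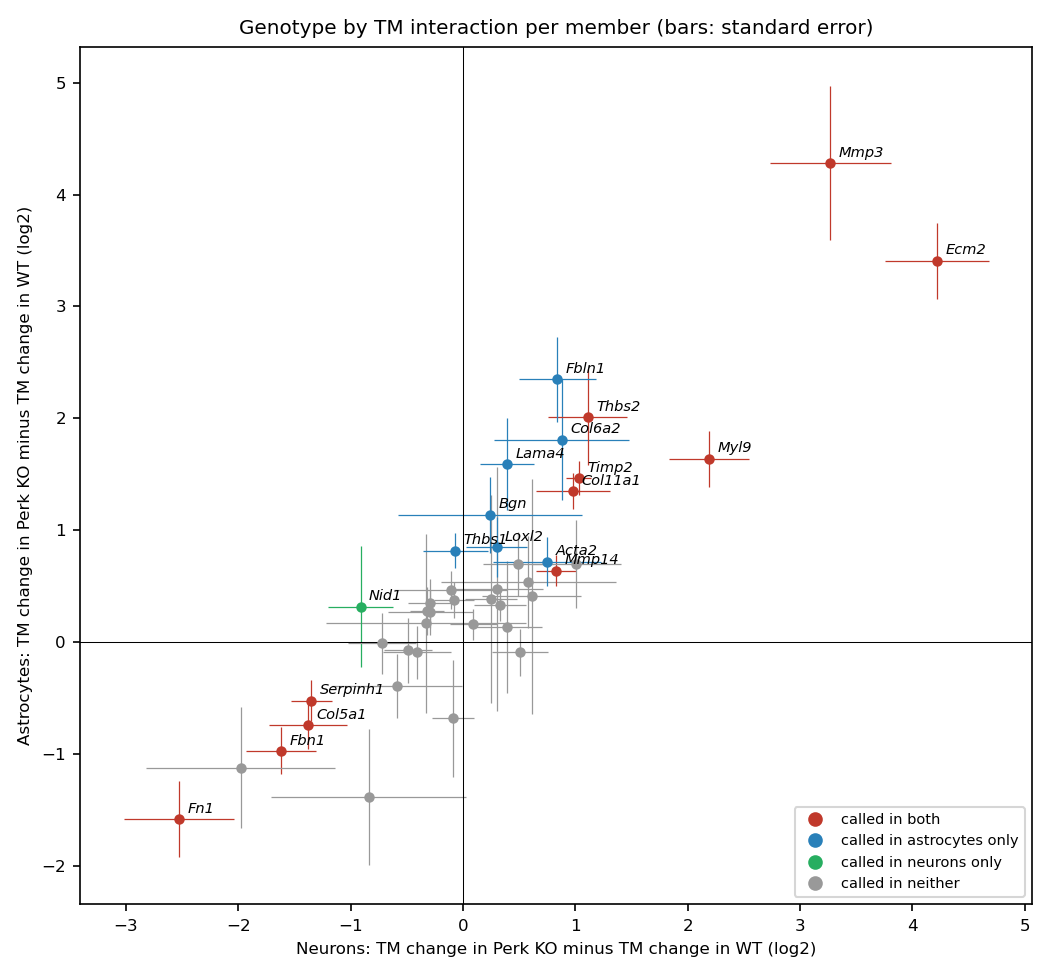
Genotype by TM interaction of each member tested in both cell types (log2, TM change in Perk KO minus TM change in WT), neurons on the horizontal and astrocytes on the vertical axis, with standard errors as bars. The 11 members called in both lie in the upper right and lower left fields, with Mmp3 and Ecm2 farthest up and Fn1 farthest down.

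Without TM, 17 of 43 members were called between the genotypes of control neurons, 16 higher and 1 lower in Perk KO, where 21.4% of all genes tested were called (12.2% higher and 9.16% lower). The members' median was 0.55, against -0.01 over all genes. The higher members were 3 fibrillar collagens, 3 basement membrane genes, 5 of the fibronectin and proteoglycan group, 2 of elastic fibres and cross-linking, 2 proteases and Plod2, and the lower one was Myl9. Of the 17 calls, 14 ended when 1 or another library was left out. The count was 5 without control WT replicate 1, 4 without control Perk KO replicate 2 and 3 without control Perk KO replicate 3, and Col3a1, Dcn and Postn alone were called whichever library was left out. Without all replicate 1 libraries, which leaves 2 against 2, it was 1 (Col1a1). Over all genes the calls were 3370 of 15757 with every library, 695, 589 and 257 without these 3 in turn and 5 without replicate 1, so the loss was not limited to the members. With the replicate number as a block 31 members were called, 29 higher and 2 lower, where 4800 of all genes were. Whether the numbers pair these libraries is not settled (correlations of deviations 0.09 to 0.25). Among 13 fibroblast and mural markers tested, 2 were higher (Rgs5, 1.49 ± 0.37, and Vtn, 1.09 ± 0.32) and 1 lower (Cnn1, -0.65 ± 0.17). Of 11 astrocyte markers 5 were higher and 0 lower, and of 7 microglial markers 3 were higher and 0 lower. Of 12 neuronal markers 1 was higher and 5 were lower, and of 9 oligodendrocyte lineage markers 1 was higher and 3 were lower. The part of these cells in the matrix differences was not tested.

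Col3a1 was at 18.1 ± 3.93 CPM (SD, n = 3) in control WT and 49.8 ± 1.48 in control Perk KO neurons, 2.73-fold higher in edgeR's quasi-likelihood test (log2 fold change 1.45 ± 0.16, adjusted p = 0.00479). Dcn was 3.33-fold higher (log2 fold change 1.74 ± 0.17, adjusted p = 0.00479) and Postn 4.09-fold (log2 fold change 2.03 ± 0.26, adjusted p = 0.0067), and in all 3 genes every Perk KO library lay above every WT library. Lox, which cross-links collagen and elastin, had the largest difference, with 8.89, 26 and 24.9 CPM in control WT and 33.2, 139 and 101 in control Perk KO neurons (log2 fold change 2.19 ± 0.53, adjusted p = 0.0237). Replicate 1 was the lowest of each group, and the groups did not overlap. Col1a1 was 3.1-fold higher (log2 fold change 1.63 ± 0.50, adjusted p = 0.048), with the lowest Perk KO library just above the highest WT library. Col1a2 was 2.12-fold higher (log2 fold change 1.08 ± 0.33, adjusted p = 0.0478) with overlapping groups, and Lum 2.96-fold (log2 fold change 1.57 ± 0.36, adjusted p = 0.021) without overlap. The call of Lox between genotypes in control neurons ended without control WT replicate 1 or control Perk KO replicate 2 or 3 (highest adjusted p = 0.0915), and that of Col1a1 and Col1a2 ended without control WT replicate 1 or 2 or control Perk KO replicate 2 or 3 (highest adjusted p = 0.171). That of Lum ended without control Perk KO replicate 1, 2 or 3 (highest adjusted p = 0.0754).

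Further members that were higher in control Perk KO neurons were Col4a1 (log2 fold change 0.60 ± 0.11, adjusted p = 0.0121), Nid1 (log2 fold change 0.75 ± 0.14, adjusted p = 0.0122), Mmp2 (log2 fold change 1.09 ± 0.22, adjusted p = 0.0146), Mmp3 (log2 fold change 1.74 ± 0.41, adjusted p = 0.0218) and Plod2 (log2 fold change 0.54 ± 0.15, adjusted p = 0.0395). Ecm2 was higher as well (log2 fold change 0.76 ± 0.24, adjusted p = 0.0492), but with a correction for GC content its value was -0.07, adjusted p = 0.871. Myl9 was lower (log2 fold change -0.48 ± 0.12, adjusted p = 0.0294), while Acta2 (-0.30 ± 0.10), Tagln (-0.45 ± 0.22), Serpinh1 (-0.07 ± 0.10) and Fn1 (0.64 ± 0.32) were not called. With the replicate number as a block Acta2 and Fn1 passed the threshold. The call of Col4a1, Mmp2 and Mmp3 between genotypes in control neurons ended without control WT replicate 1 or control Perk KO replicate 2 or 3 (highest adjusted p = 0.0825), and that of Nid1 ended without control Perk KO replicate 3 (highest adjusted p = 0.0556). That of Plod2 ended without control WT replicate 1 or 2 or control Perk KO replicate 2 or 3 (highest adjusted p = 0.148), and that of Ecm2 and Myl9 ended without control WT replicate 1 or 2 or control Perk KO replicate 1, 2 or 3 (highest adjusted p = 0.174).

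**Figure D5:**
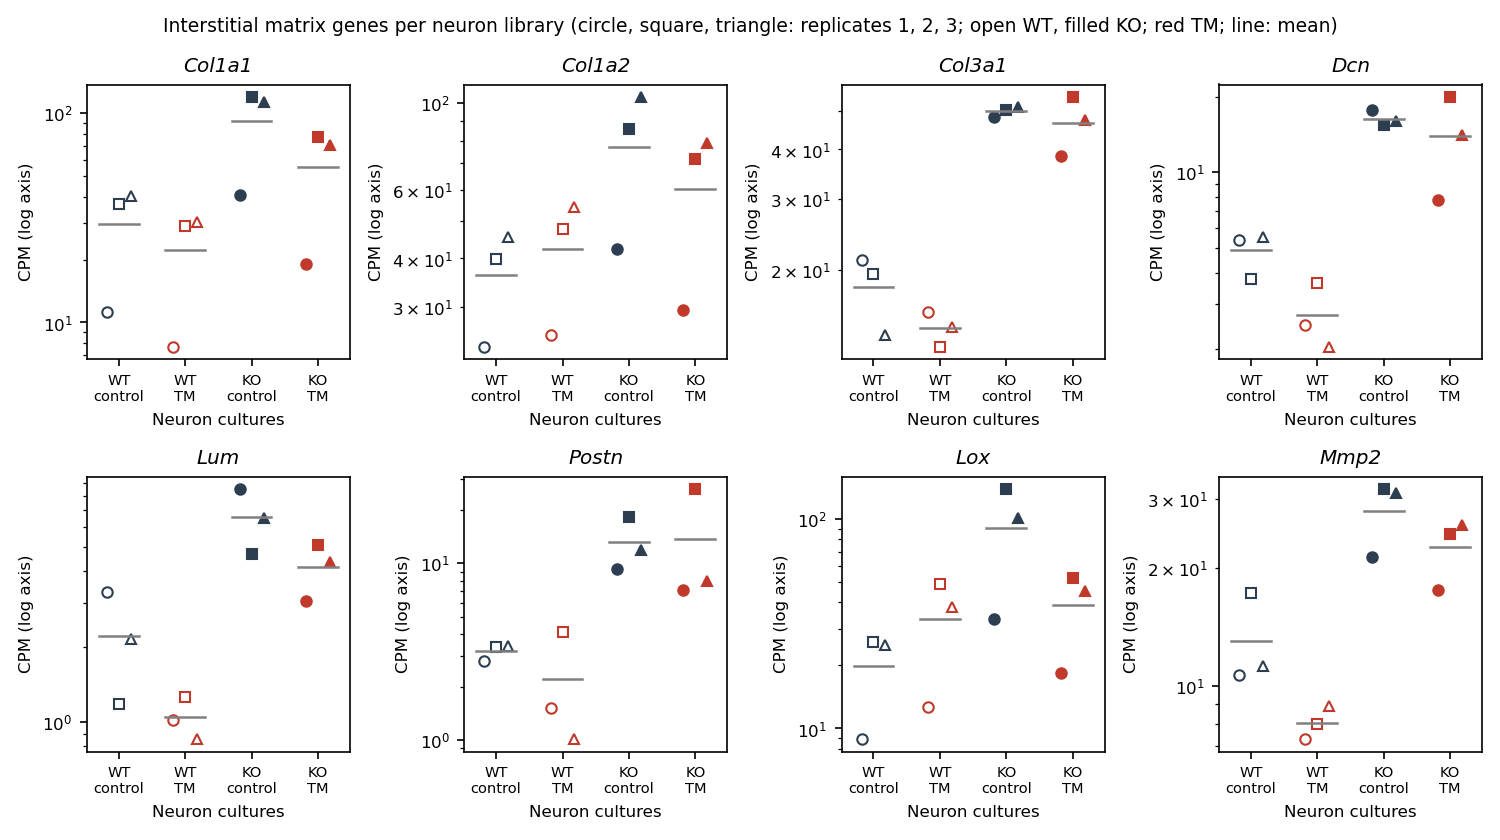
Level (CPM, log axis) of 8 interstitial matrix genes in the 12 neuron libraries; open symbols are WT, filled symbols Perk KO, red symbols TM-treated, symbol shape the replicate number and lines the group mean. Circles, which mark replicate 1, are the lowest of each group for Col1a1, Col1a2, Lox and Mmp2, and the filled symbols of Col3a1 lie above all open ones with and without TM.

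In control astrocytes 5 of 42 members were called, all higher in Perk KO, where 14.9% of all genes tested were called (4.71% higher and 10.2% lower), and the members' median was 0.12 against 0.03. They were Ecm2 (0.92 ± 0.25), Col11a1 (0.57 ± 0.10), Timp2 (0.53 ± 0.12), Lama2 (0.39 ± 0.11) and Mmp14 (0.34 ± 0.09). The count was 0 without control WT replicate 2 or 3, 1 without control Perk KO replicate 1, 0 without control Perk KO replicate 2 and 2 without control Perk KO replicate 3. Over all genes the calls were 2260 of 15196 with every library and 50 to 1211 without one of these 5. With the replicate number as a block the members called were 9, 8 higher and 1 lower, where 5730 of all genes were called. The interstitial genes that were higher in control Perk KO neurons were not called here: Col1a1 was 0.10 ± 0.43, Col3a1 -0.29 ± 0.53, Dcn -0.09 ± 0.75, Postn -0.16 ± 0.26 and Lox -0.17 ± 0.29. Whether these genotype differences differ between neurons and astrocytes was not tested. The call of Ecm2 and Mmp14 between genotypes in control astrocytes ended without control WT replicate 2 or 3 or control Perk KO replicate 1, 2 or 3 (highest adjusted p = 0.167), and that of Col11a1 ended without control WT replicate 2 or 3 or control Perk KO replicate 2 (highest adjusted p = 0.0567). That of Timp2 ended without control WT replicate 2 or 3 or control Perk KO replicate 1 or 2 (highest adjusted p = 0.117), and that of Lama2 ended without any 1 of the 6 libraries (highest adjusted p = 0.147). Serpinh1 (-0.35, adjusted p = 0.00891) passed the threshold between genotypes in control astrocytes with the replicate number as a block.

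Under TM, 26 of 43 members were called between the genotypes of neurons, 22 higher and 4 lower in Perk KO, where 40.1% of all genes tested were called (20.7% higher), with a median of 0.69 against 0.02. In TM-treated astrocytes 25 of the 41 members tested were called, 20 higher and 5 lower, against 63.3% of all genes (32.1% higher), with a median of 0.45 against 0.01. The 4 lower in neurons were Fn1 (-1.83 ± 0.27), Serpinh1 (-1.35 ± 0.16), Fbn1 (-1.05 ± 0.18) and Col5a1 (-0.76 ± 0.17). In astrocytes these were at -1.80 ± 0.24, -0.84 ± 0.14, -1.17 ± 0.12 and -0.51 ± 0.14, all called, with Lox (-1.26 ± 0.37) as the fifth lower member. Mmp3 was 33.9-fold higher in TM-treated Perk KO neurons (adjusted p = 2.38e-05) and 19.6-fold in astrocytes (adjusted p = 4.3e-05). Ecm2 was 33.1-fold higher in neurons (adjusted p = 5.26e-05) and 20.4-fold in astrocytes (adjusted p = 2.97e-06). For both genes all TM-treated Perk KO libraries lay above all TM-treated WT libraries. The TM-treated WT libraries held few counts of either gene, so the sizes of these folds are uncertain. In TM-treated WT neurons Ecm2 was at 0.16 to 0.824 CPM and Mmp3 at 0.396 to 0.801 CPM. These comparisons share the TM-treated WT libraries with the TM effects in WT cells given above. The call of Col5a1 between genotypes in TM-treated astrocytes ended without TM-treated Perk KO replicate 1 or 2 (highest adjusted p = 0.054), and that of Lox ended without TM-treated Perk KO replicate 2 (highest adjusted p = 0.0562). The replicate block gave 31 members in TM-treated neurons, 27 higher and 4 lower, where 7502 of all 16026 genes were called. In TM-treated astrocytes it gave 30, 23 higher and 7 lower, where 10248 of all 14927 genes were. The astrocyte members gained were Lamb1, Lamc1, Fbln2, Tagln and Plod2.

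Of 8 interstitial matrix genes, 5 were also higher in Perk KO neurons under TM, where 20.7% of all genes tested were. All 8 were picked from the members called higher in control Perk KO neurons, so the count does not describe matrix genes at large. Members outside the 8 went both ways, with Fn1, Fbn1 and Col5a1 among those lower, as given above. Postn was 2.67 ± 0.64 (adjusted p = 0.011), Dcn 2.40 ± 0.36 (adjusted p = 0.00117), Lum 2.04 ± 0.30 (adjusted p = 0.00107), Col3a1 1.77 ± 0.15 (adjusted p = 8.99e-05) and Mmp2 1.55 ± 0.18 (adjusted p = 0.000368). Col1a1 (1.35 ± 0.58, adjusted p = 0.0973), Col1a2 (0.55 ± 0.38, adjusted p = 0.275) and Lox (0.26 ± 0.49, adjusted p = 0.696) missed the threshold. Of 13 fibroblast and mural markers tested, 6 were higher and 0 lower, among them Islr (2.99 ± 0.29), Vtn (2.40 ± 0.27) and Pdgfrb (1.13 ± 0.14). All 12 astrocyte markers were higher, where 20.7% of all genes tested were. The part of these cells in the differences was not tested. The call of Postn between genotypes in TM-treated neurons ended without TM-treated WT replicate 1 (highest adjusted p = 0.0516). Col1a1 (1.37, adjusted p = 4.95e-05) and Col1a2 (0.51, adjusted p = 0.00566) passed the threshold between genotypes in TM-treated neurons with the replicate number as a block.

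In TM-treated astrocytes the largest differences after Ecm2 and Mmp3 were those of Fbln1 (2.77 ± 0.35), Thbs2 (2.34 ± 0.37), Timp2 (2.03 ± 0.10), Col11a1 (1.95 ± 0.13) and Lama4 (1.88 ± 0.26). Col1a1 (0.30 ± 0.55), Col3a1 (0.13 ± 0.60), Dcn (0.34 ± 0.51) and Postn (0.41 ± 0.29) were not called. Of the markers in these astrocytes, 4 of 10 fibroblast and mural genes and 10 of 11 astrocyte genes were higher, and 0 were lower. Of 18 further collagen genes tested, 14 were higher and 2 lower, led by Col8a2 (3.42 ± 0.20) and Col6a1 (2.90 ± 0.34), and the laminin gene Lama1 was lower (-3.68 ± 0.18). Among all genes tested 32.1% were higher and 31.2% lower.

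Receptors for the matrix and genes of the TGF-beta pathway, a known inducer of collagens, were read beside the members. Over all genes tested, TM lowered 24.8% and raised 27% in WT neurons, and 10.8% and 13.1% in Perk KO neurons. The shares were 27.7% and 25% in WT astrocytes, and 4.6% and 5.55% in Perk KO astrocytes. Between TM-treated genotypes 20.7% were higher and 19.4% lower in Perk KO neurons, and 32.1% and 31.2% in Perk KO astrocytes. Of 20 matrix receptors, 10 of 19 tested fell and 5 rose with TM in WT neurons, and 0 of 20 fell and 7 rose in Perk KO neurons. In WT astrocytes 13 of 20 fell and 2 rose, and in Perk KO astrocytes 4 of 20 fell and 1 rose. Between TM-treated genotypes 15 of 20 were higher and 3 lower in Perk KO neurons, and 13 of 19 higher and 3 lower in Perk KO astrocytes. Ddr2, a collagen-binding receptor kinase, rose with TM in WT neurons (2.82 ± 0.24), whereas Sdc4, a syndecan (-0.93 ± 0.10), and Dag1, dystroglycan (-0.89 ± 0.09), fell. Of 18 TGF-beta pathway genes, 6 of 18 fell and 3 rose in WT neurons, and 4 of 18 fell and 3 rose in Perk KO neurons. In WT astrocytes 10 of 18 fell and 3 rose, and in Perk KO astrocytes 8 of 18 fell and 3 rose. Ctgf, a target of the pathway and of YAP, fell in WT neurons (-2.27 ± 0.25) and Perk KO astrocytes (-1.67 ± 0.22). Tgfb3, a ligand, fell in WT astrocytes (-1.68 ± 0.14) and rose in Perk KO astrocytes (0.61 ± 0.09), an interaction of 2.28 ± 0.16 (adjusted p = 2.09e-06).

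The TM response of WT neurons and WT astrocytes differed for 12 of 43 members, 11 with a higher and 1 with a lower value in neurons, where 24.9% of all genes tested differed (12.4% higher), with a median of 0.47 against -0.02. Fbln1 (1.52 ± 0.49), Eln (1.2 ± 0.32), Timp2 (1.02 ± 0.15) and Lama4 (1.02 ± 0.33) differed most. Serpinh1 (0.64 ± 0.18, adjusted p = 0.0187) and P4ha1 (0.57 ± 0.16, adjusted p = 0.0231) were the genes of collagen folding among them, with higher values in neurons. Myl9 was the member with the lower value in neurons (-0.70 ± 0.20, adjusted p = 0.0214). The count was 5 without control WT neuron replicate 1, TM-treated WT neuron replicate 3 or control WT astrocyte replicate 2, and 6 without control WT astrocyte replicate 3, against 3211, 3253, 3248 and 3681 calls over all genes in place of 3917, while Eln, Timp2 and Serpinh1 were called whichever library was left out. The call of Fbln1 for the difference between cell types in the TM response ended without control WT neuron replicate 1 or 3, TM-treated WT neuron replicate 1 or 3, control WT astrocyte replicate 2 or 3 or TM-treated WT astrocyte replicate 1 or 3 (highest adjusted p = 0.0915), and that of Lama4 ended without control WT neuron replicate 1 or 3, TM-treated WT neuron replicate 1, 2 or 3, control WT astrocyte replicate 1 or 3 or TM-treated WT astrocyte replicate 1 or 2 (highest adjusted p = 0.0908). That of P4ha1 ended without TM-treated WT neuron replicate 1 or control WT astrocyte replicate 2 (highest adjusted p = 0.0578), and that of Myl9 ended without TM-treated WT neuron replicate 2 or control WT astrocyte replicate 1 or 2 (highest adjusted p = 0.084).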

How the data were processed

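RNA sequencing libraries of cultured neurons and astrocytes (3 for each cell type, genotype and treatment) were analysed from the deposited tables. Read counts per gene were made by the authors with fastp, HISAT2 and featureCounts, per the submitters' processing notes, which name the build GRCm38.p6 and give no versions. Beside the counts stand log2 fold changes, p-values and adjusted p-values of the authors, made with DESeq2 per the same notes; these were used only for a count in the closing section. Each library stands in 2 tables, and 0 counts differed between them. Per the labels' protocols the library kit was NEBNext Ultra, which does not mark strand and adds no molecular identifiers.

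For each comparison, genes with an average of 10 counts or more entered edgeR 4.0.16 (quasi-likelihood test, TMM normalisation, limma 3.58.1, R 4.3.3), with Benjamini-Hochberg adjustment over all genes tested and a threshold of 0.05. Each fit held the groups compared and no covariate. The method was run on simulated counts with known changes, drawn with the same spread for every gene and no replicate effect. That simulation does not give the error rate in these data. Per-kilobase levels divide CPM by the exonic length in the annotation. The members and the lists of other genes were chosen with earlier results of these data known. All members could be named, and the values of every library are given for 13 chosen members and for the 3 largest called changes of each comparison without overlap (mean of at least 100 counts). From other lists up to 4 genes with the smallest p were named.

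Alternatives were DESeq2 1.42.0 (Wald test), its size factors, no filter, a correction for GC content (value present for 99.8% of genes tested), the replicate number as a block, both together, and each library left out in turn. Leaving out all replicate 1 libraries was added after seeing the data. Libraries with the same number deviated together in TM-treated neurons (correlation of deviations 0.13 to 0.31) and in the astrocyte comparisons (0.21 to 0.55), so there the numbers were taken to pair libraries. The main fits do not use this pairing, and neither do the p-values and counts taken from them. Replicates differed beyond counting noise (chi-square per gene 7.06 to 70.6), and none was a repeated library.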

Additional observations from a re-analysis of the deposited data

Results flagged for a closer look

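Each result here is a difference between 2 groups in their response to TM that passed edgeR's test of the difference itself (log2 scale, adjusted p under 0.05). In neurons the response differed between genotypes for 12 of 43 members, where it did for 29.8% of all genes tested. The count of members was thus near the share over all genes. The response was higher in Perk KO for Col11a1 (0.98), Ecm2 (4.22), Thbs2 (1.11), Mmp3 (3.27), Mmp14 (0.83), Timp2 (1.03) and Myl9 (2.19). It was lower for Col5a1 (-1.38), Nid1 (-0.91), Fn1 (-2.53), Fbn1 (-1.62) and Serpinh1 (-1.35). The calls of Col11a1, Nid1 and Thbs2 did not hold with every library left out in turn, as given above.

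In astrocytes the response differed between genotypes for 18 of 42 members, where it did for 34.4% of all genes tested. It was higher in Perk KO for Col11a1 (1.35), Col6a2 (1.81), Lama4 (1.59), Bgn (1.14), Ecm2 (3.41), Thbs1 (0.82), Thbs2 (2.01), Fbln1 (2.35), Loxl2 (0.85), Mmp3 (4.28), Mmp14 (0.64), Timp2 (1.47), Acta2 (0.72) and Myl9 (1.64), and lower for Col5a1 (-0.74), Fn1 (-1.58), Fbn1 (-0.97) and Serpinh1 (-0.52). The calls of Col6a2, Bgn, Loxl2, Acta2 and Serpinh1 did not hold with every library left out in turn, as given above.

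Between WT neurons and WT astrocytes the response differed for 12 of 43 members, where it did for 24.9% of all genes tested. This count, too, was near the share over all genes. The response was higher in neurons for Col5a1 (0.8), Col5a2 (0.82), Col4a1 (0.67), Lama4 (1.02), Lamc1 (0.58), Thbs1 (0.67), Fbln1 (1.52), Eln (1.2), Timp2 (1.02), Serpinh1 (0.64) and P4ha1 (0.57), and lower for Myl9 (-0.7). The call of Col5a1 for the difference between cell types in the TM response ended without control WT neuron replicate 1 or 3, TM-treated WT neuron replicate 2 or 3, control WT astrocyte replicate 2 or 3 or TM-treated WT astrocyte replicate 2 or 3 (highest adjusted p = 0.101), and that of Col5a2 ended without control WT neuron replicate 1, TM-treated WT neuron replicate 3 or control WT astrocyte replicate 2 or 3 (highest adjusted p = 0.0609). That of Col4a1 ended without control WT neuron replicate 1, TM-treated WT neuron replicate 3, control WT astrocyte replicate 3 or TM-treated WT astrocyte replicate 2 (highest adjusted p = 0.0694), and that of Lamc1 ended without control WT neuron replicate 1 or 2, TM-treated WT neuron replicate 3, control WT astrocyte replicate 2 or 3 or TM-treated WT astrocyte replicate 2 or 3 (highest adjusted p = 0.0905). That of Thbs1 ended without control WT neuron replicate 1 or 2, TM-treated WT neuron replicate 3, control WT astrocyte replicate 2 or TM-treated WT astrocyte replicate 3 (highest adjusted p = 0.0802).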

How the results depend on the processing

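The number of called members stayed within 1.5 times its value under DESeq2, under its size factors and under the GC correction alone in all 12 comparisons. Without the filter on low counts it was 30 in place of 17 between control neuron genotypes and 3 in place of 5 between control astrocyte genotypes. With the replicate block it was 31, 32 and 9 in place of 17 (control neuron genotypes), 19 (TM in Perk KO astrocytes) and 5 (control astrocyte genotypes). With block and GC correction together it was 31, 32 and 10 for these, 24 in place of 15 for TM in Perk KO neurons and 23 in place of 12 for the interaction in neurons. Without all replicate 1 libraries it was 1 between control neuron genotypes. The cause of these moves was not tested. Between control neuron genotypes the correlations were 0.09 to 0.25, and whether the numbers pair libraries there is not settled. In the neuron comparisons of TM and of the interaction, same-numbered libraries did not all deviate together (correlations from -0.39 to 0.30). The same held between cell types (-0.21 to 0.51), and in these comparisons the numbers were not taken to pair libraries. There the block gave 27 (TM, WT neurons), 21 (TM, Perk KO neurons), 18 (interaction, neurons), 14 (cell type difference in the TM response) and 33 (control WT cultures). Where the numbers pair libraries, it moved no other count by over 1.5 times.

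With single libraries left out, the counts ranged from 17 to 27 for TM in WT neurons, 6 to 22 for TM in Perk KO neurons, 3 to 24 for control neuron genotypes, 0 to 6 for control astrocyte genotypes and 5 to 12 for the cell type difference in the TM response. A direction reversed for Ecm2 between control neuron genotypes (-0.07 with the GC correction, -0.06 with block and GC correction) and between cell types (0.04 and 0.06). Postn with TM in Perk KO neurons ranged from -0.82 to 0.37. Of 1410 values of called members under the 6 other planned settings, 1387 kept direction and call, 19 lost the call and 4 reversed. Of 1650 values of members not called, 253 became calls under these settings. Of 1662 with a library left out, 291 lost it. The authors' deposited table calls 27, 17, 17 and 26 members in neurons (TM in WT, TM in Perk KO, genotype in controls, genotype under TM) and 28, 23, 6 and 26 in astrocytes. Depth limits Lum in astrocytes, Ecm2 in TM-treated WT cells and Mmp3 in WT cells.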
